A study of Homo sapiens with 24 samples.

Results

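The genes described here are *FMR1*, its autosomal paralogs *FXR1* and *FXR2*, and 3 genes for proteins that bind FMRP, the product of *FMR1*. The 3 partners are *CYFIP1*, *CYFIP2* and *NUFIP2*. A member was taken as the probe set whose only gene symbol in the array annotation is that of the gene, with the highest mean where a gene had several. All 6 were found, each with 1 probe set, among 18395 genes with a single symbol. In GRCh38.p14 the genes lie on 5 chromosomes, *FMR1* at chrX:147911919-147951125 (plus strand), *FXR1* at chr3:180912670-180982753 (plus strand), *FXR2* at chr17:7591230-7614897 (minus strand), *CYFIP1* at chr15:22867052-22980898 (minus strand), *CYFIP2* at chr5:157266123-157395594 (plus strand) and *NUFIP2* at chr17:29255839-29294148 (minus strand). HEK293T cells, an established line of human embryonic kidney origin, were transfected and harvested 6 or 24 h later, on 3 arrays for each of 8 conditions and 24 arrays in all. In the knockdown arm the cells received 40 nM of a control siRNA (CTLsiRNA) or of an siRNA against *FMR4* (FMR4siRNA), carried by Lipofectamine RNAiMAX. In the overexpression arm they received 0.5 μg of the pcDNA3.1 vector, empty (CTRLpcDNA) or with *FMR4* (FMR4pcDNA), carried by Lipofectamine 2000CD. Every group was therefore transfected, the study has no untransfected cells, and nucleic acid and reagent differ together between the arms and cannot be told apart. Each array held 1 biological replicate pooled from 3 technical ones, and nothing in the labels gives a batch, a scan date or a separate culture, so that p-values measure only the spread between these samples. In such bulk samples, fewer cells of a type and less RNA per cell cannot be told apart. The values are the deposited log2 expression values, and differences are given as log2 differences, so that 1 unit is a doubling.

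FMRP is an RNA-binding protein that represses translation of many messages and is best known in neurons, where its loss causes fragile X syndrome. FXR1 and FXR2 share its RNA-binding domains and assemble with it into ribonucleoprotein particles. CYFIP1 and CYFIP2 belong to the WAVE complex, which drives branched actin assembly downstream of the GTPase Rac, and CYFIP1 also joins FMRP to the cap-binding factor eIF4E. NUFIP2 is an RNA-binding protein found with FMRP in RNA granules. *FMR4* is a long noncoding RNA read from the strand opposite *FMR1*, away from it.

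The region before the start of *FMR1* is shown because *FMR4*, the RNA targeted in this study, starts there on the opposite strand, and those of *FXR2* and *CYFIP1* because these 2 genes differed between the arms of the study in the same direction as *FMR1*. Each is the stretch of 250 bases before the first base of the gene in RefSeq (GRCh38.p14), read 5′ to 3′ on the strand of the gene. Capitals mark the E-box (CACGTG), the GC box (GGGCGG), the NRF1 core (GCATGCGC) and the CCAAT box (CCAAT), searched on both strands.
FMR1 (chrX:147911669-147911918, plus strand): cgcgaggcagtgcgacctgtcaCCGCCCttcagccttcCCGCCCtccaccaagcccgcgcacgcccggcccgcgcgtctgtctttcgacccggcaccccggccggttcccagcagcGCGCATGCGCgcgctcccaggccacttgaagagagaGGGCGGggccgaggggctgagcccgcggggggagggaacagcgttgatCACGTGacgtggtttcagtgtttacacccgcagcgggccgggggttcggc
FXR2 (chr17:7614898-7615147, minus strand): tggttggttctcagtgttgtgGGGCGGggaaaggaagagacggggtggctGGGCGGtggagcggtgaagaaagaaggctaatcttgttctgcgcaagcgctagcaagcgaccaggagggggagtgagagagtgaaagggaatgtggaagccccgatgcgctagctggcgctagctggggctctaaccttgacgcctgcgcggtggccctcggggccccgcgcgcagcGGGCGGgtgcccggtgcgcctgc
CYFIP1 (chr15:22980899-22981148, minus strand): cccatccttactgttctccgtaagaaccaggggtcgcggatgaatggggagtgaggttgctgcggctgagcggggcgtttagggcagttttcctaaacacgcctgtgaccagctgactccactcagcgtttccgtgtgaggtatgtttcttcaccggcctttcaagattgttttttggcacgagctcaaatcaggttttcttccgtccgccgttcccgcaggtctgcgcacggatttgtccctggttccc
The first base of *FMR1* is at 147911919 of chromosome X, and that of *FMR1-AS1*, the symbol under which RefSeq holds *FMR4*, at 147911817. The 2 genes thus read away from each other with 101 bases between their starts, and part of the *FMR1* stretch above lies within *FMR1-AS1*. The *FMR1* stretch had 1 E-box, whose first base is 50 bases before the start, 3 GC boxes and 2 NRF1 cores that overlap on opposite strands. The *FXR2* stretch had 3 GC boxes and none of the other motifs, and the *CYFIP1* stretch had 0 matches to any of the 4. *CYFIP1* has 4 promoter windows, and *FXR1* and *CYFIP2* have 2 each. For these genes only the window at the first base of the gene is described. Among the other members, *CYFIP2* had 5 GC boxes, *FXR1* had 2 GC boxes and 1 CCAAT box, and *NUFIP2* had 1 of each. The E-box was in 6.34% of all 35116 promoter windows of this length, the NRF1 core in 2.63%, the GC box in 42.6% and the CCAAT box in 32.0%. These matches are letters in a window and say nothing of binding. The G and C content of the stretch was 72.4% for *FMR1*, 66.0% for *FXR2* and 55.6% for *CYFIP1*.

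*FMR4* itself has no probe set under its own symbol or under *FMR1-AS1*, so the level of the targeted RNA was not read from these arrays. The 9 marker genes measured for HEK293T cells, among them *VIM* and the neurofilament genes *NEFL* and *NEFM*, had mean levels from 7.39 to 12.14 and were all above 6.00, the upper quartile of 429 olfactory receptor and keratin-associated protein genes that are mostly silent in this line. The leukocyte gene *PTPRC* had a mean of 4.35 and the liver gene *ALB* one of 4.81. Of the genes chosen as markers of other tissues, 2 of 3 for blood, 1 of 3 for liver, 3 of 4 for glia and neurons and 3 of 3 for muscle were also above 6.00, none of them above 8.79, so this level separates them only in part. All 6 members were above 6.00 on every array. The 3 FMR4siRNA arrays at 6 h agreed less with one another than the arrays of any other condition. Their median correlation with the arrays of their own condition was 0.991 to 0.994 against 0.997 to 0.998 on the other 21 arrays, and replicate 3 had the lowest value. Since this compares an array only with its own condition, 1 deviating array lowers the value of all 3. Array weights, which count outlying arrays less, were 0.40, 1.66 and 0.15 for replicates 1, 2 and 3 of these arrays. For the members, a call that changed without one of these arrays is given below with its value.

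The first question was whether the siRNA against *FMR4* or its plasmid moved any of the 6 genes. Limma called 0 of 6 members in each of the 4 comparisons with the matched control. With FMR4siRNA at 6 h, 0 members and 718 of all genes had an unadjusted p under 0.05, and 0.0598% of all genes were called. That share rests on 1 array, since 11 of the 18395 genes were called with all arrays and 854 without the third FMR4siRNA array at 6 h. At 24 h, 3 members and 3017 of all 18395 genes had an unadjusted p under 0.05, and 5.89% of all genes were called. With FMR4pcDNA, 0 members had an unadjusted p under 0.05 at either time, and 0% of all genes were called at 6 h and 0% at 24 h. Over all genes, 372 had an unadjusted p under 0.05 at 6 h and 602 at 24 h.

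*FMR1*, the gene opposite *FMR4*, had levels of 10.57, 10.53 and 10.51 with CTLsiRNA at 24 h and of 10.74, 10.75 and 10.51 with FMR4siRNA. The first and the second FMR4siRNA array lay above every control array and the third was level with the lowest of them. The difference was 0.13 (SE 0.06, 95% interval 0.01 to 0.26, limma adjusted p = 0.291). Without the third FMR4siRNA array it was 0.21 and passed the threshold (adjusted p = 0.0295), so that 1 array decides the call. At 6 h the difference was 0.01 (95% interval −0.11 to 0.14). With FMR4pcDNA, *FMR1* read 10.43, 10.47 and 10.48 at 6 h against 10.53, 10.51 and 10.52 with the empty vector, and the groups did not overlap. The difference was −0.06 (95% interval −0.18 to 0.07, adjusted p = 1), and at 24 h it was −0.07 (95% interval −0.19 to 0.06, adjusted p = 0.999).

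The other members with an unadjusted p under 0.05 were *FXR1* and *NUFIP2*, both lower with FMR4siRNA at 24 h. *FXR1* read 10.94, 10.93 and 10.76 against 11.08, 10.99 and 11.02 in the control, a difference of −0.15 (SE 0.06, 95% interval −0.28 to −0.02, adjusted p = 0.204). *NUFIP2* read 10.73, 10.86 and 10.69 against 11.04, 10.98 and 11.04, a difference of −0.26 (SE 0.12, 95% interval −0.51 to −0.01, adjusted p = 0.291). In both genes the 2 groups did not overlap. Overlap of arrays is given throughout as a description. It was not counted over all genes, and with 3 arrays a group it does not replace the test. With array weights, which count outlying arrays less, the *NUFIP2* difference was −0.27 and was called (adjusted p = 0.0219). At 6 h *NUFIP2* had a difference of −0.13 (adjusted p = 1) that became −0.36 (adjusted p = 0.0113) without the third FMR4siRNA array. *FXR2*, *CYFIP1* and *CYFIP2* had differences between −0.10 and 0.12 in the 2 knockdown comparisons, with adjusted p of 0.44 or higher, and of these only the *CYFIP1* arrays at 24 h did not overlap. In the 2 overexpression comparisons the 6 members had differences between −0.08 and 0.03, with adjusted p of 0.999 or 1. There the *FXR1* arrays at 24 h and the *FMR1* arrays at 6 h did not overlap.

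**Figure D1:**
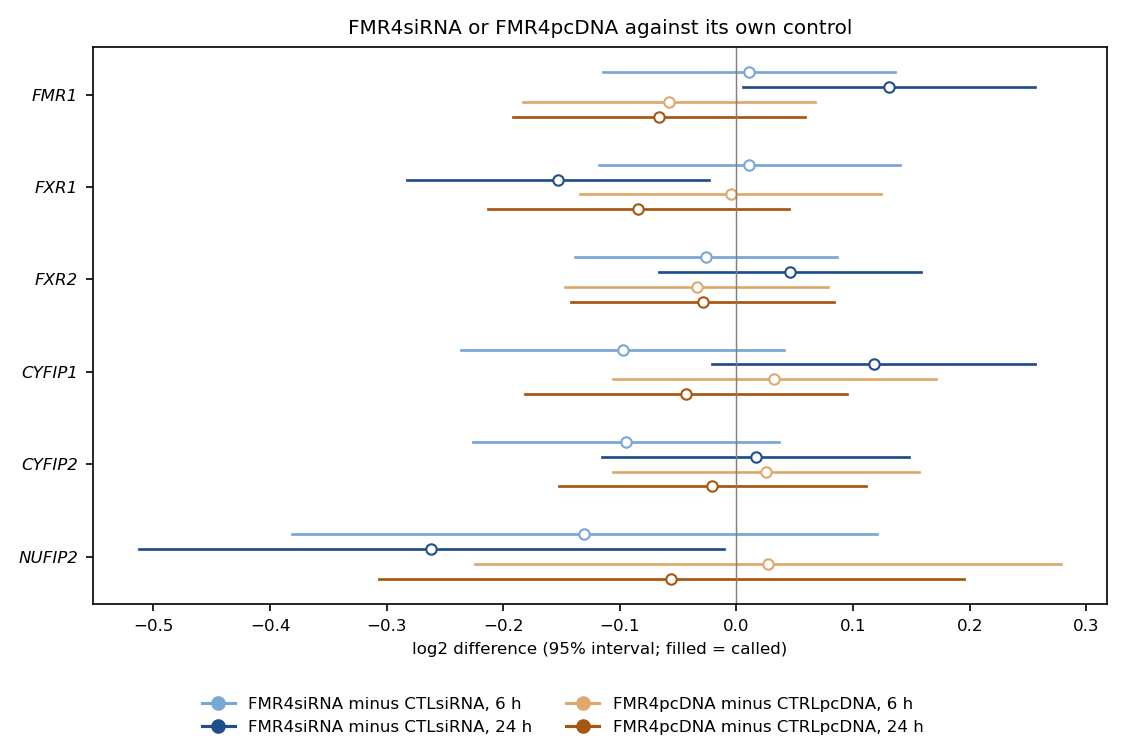
Log2 difference of each gene between an *FMR4* treatment and its matched control (x axis), for the siRNA and the plasmid at 6 and 24 h, with 95% intervals from limma (n = 3 arrays a group). All points are open because 0 members were called, and the intervals of *FMR1*, *FXR1* and *NUFIP2* for FMR4siRNA at 24 h exclude 0 before adjustment.

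The change of the siRNA effect from 6 to 24 h was tested as well, and limma called 0 of 6 members, with 1.19% of all genes called. These were 218 genes, and 1529 without the third FMR4siRNA array at 6 h. *CYFIP1* was the 1 member with an unadjusted p under 0.05, at 0.22 (SE 0.09, adjusted p = 0.399), as were 2080 of all genes. For the plasmid, 0 of 6 were called, 0 had an unadjusted p under 0.05 and 0% of all genes were called, with 340 genes at an unadjusted p under 0.05.

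The second question was how the 6 genes changed from 6 to 24 h. Averaged over the 4 transfections, limma called 2 of 6 members, where 30.7% of all genes were called, so the share of members was close to that of all genes. *FXR1* rose by 0.11 on the log2 scale (SE 0.03, 1.08-fold, adjusted p = 0.00692) and *NUFIP2* fell by 0.19 (SE 0.06, 1.14-fold, adjusted p = 0.018). The other 4 had mean changes between −0.06 and 0.02. *CYFIP1* was called after quantile normalization (−0.08, adjusted p = 0.0263). The 2 arms were then compared in how they changed. The change with plasmid minus that with siRNA was negative in 4 of 6 members and called in 3 of them, *FMR1*, *FXR2* and *CYFIP1*, where it was called for 11% of all genes. The fourth, *FXR1*, was not called.

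**Figure D2:**
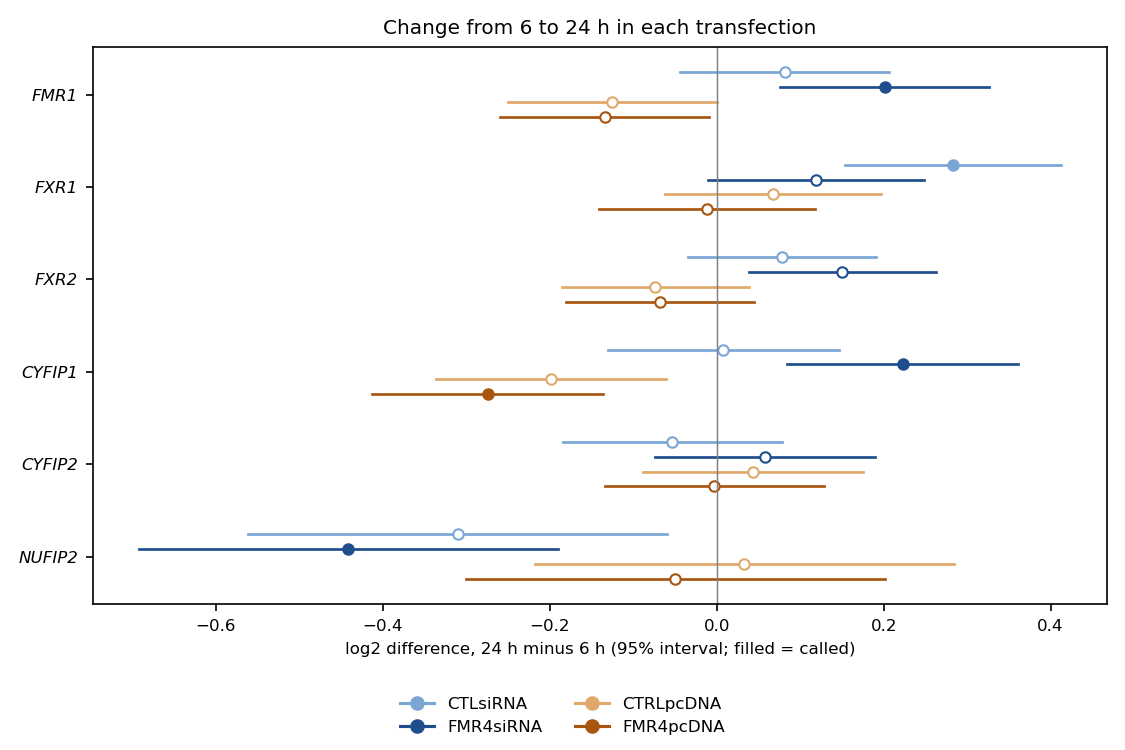
Log2 difference between 24 and 6 h (x axis) for each gene in each of the 4 transfections, with 95% intervals from limma (n = 3 arrays a group, filled points called at an adjusted p under 0.05). For *FMR1*, *FXR1*, *FXR2* and *CYFIP1* both siRNA points (blue) lie right of both plasmid points (orange), and for *NUFIP2* left of them.

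*FMR1* had positive differences from 6 to 24 h in the siRNA arm and negative ones in the plasmid arm. With CTLsiRNA it read 10.48, 10.37 and 10.52 at 6 h and 10.57, 10.53 and 10.51 at 24 h, overlapping ranges that differed by 0.08 (SE 0.06, adjusted p = 0.405). With FMR4siRNA it read 10.47, 10.46 and 10.46 at 6 h and 10.74, 10.75 and 10.51 at 24 h. All 3 later arrays were higher, and the rise of 0.20 was called (SE 0.06, 1.15-fold, adjusted p = 0.0255). With CTRLpcDNA the arrays read 10.53, 10.51 and 10.52 at 6 h and 10.39, 10.42 and 10.37 at 24 h, a difference of −0.13 (SE 0.06, adjusted p = 0.247). With FMR4pcDNA they read 10.43, 10.47 and 10.48 and then 10.36, 10.39 and 10.24, a difference of −0.13 (SE 0.06, adjusted p = 0.212). In both plasmid transfections every 24 h array lay below every 6 h array.

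Averaged over both transfections of an arm, the change of *FMR1* with plasmid minus that with siRNA was −0.27 (SE 0.06, 95% interval −0.40 to −0.15, 1.21-fold, adjusted p = 0.00809). Leaving out any 1 of the 24 arrays kept the call, with values from −0.31 to −0.25. The control transfections alone gave −0.21 (SE 0.09, adjusted p = 0.223) and the *FMR4* transfections alone −0.33 (SE 0.09, adjusted p = 0.036), so the sign was shared and the call was made in the *FMR4* transfections and not in the controls. Over all genes the calls were 2031 with both pairs, 206 with the controls alone and 559 with the *FMR4* transfections alone. Whether the 2 pairs differ was not tested. The call within FMR4siRNA was less stable. It was lost without the first or the second 24 h array (0.16 in both, adjusted p = 0.116 and 0.133) and without the second or the third 6 h array (0.20 in both, adjusted p = 0.0592 and 0.0521). It was also lost in a fit to its own 6 arrays, with the difference as before (adjusted p = 0.313).

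*FXR2*, the member with the smallest pooled spread between arrays, had the same signs as *FMR1*. It read 10.35, 10.26 and 10.29 with CTLsiRNA at 6 h and 10.43, 10.31 and 10.39 at 24 h, and 10.28, 10.22 and 10.32 with FMR4siRNA at 6 h and 10.42, 10.45 and 10.40 at 24 h. The FMR4siRNA groups did not overlap and the CTLsiRNA groups did. With CTRLpcDNA it read 10.27, 10.30 and 10.24 at 6 h and 10.26, 10.16 and 10.17 at 24 h, and with FMR4pcDNA 10.21, 10.20 and 10.30 and then 10.16, 10.25 and 10.10. Both plasmid comparisons overlapped. Limma called 0 of the 4 changes, at 0.08, 0.15, −0.07 and −0.07 in the same order (adjusted p = 0.365, 0.0615, 0.484 and 0.534), and that of FMR4siRNA passed with dim probe sets left out (adjusted p = 0.0471). Between arms the difference of the changes was −0.19 (SE 0.05, 95% interval −0.30 to −0.07, 1.14-fold, adjusted p = 0.0323). That call was kept without 13 of the 24 arrays in turn and lost without any 1 of the other 11 (adjusted p up to 0.0683), among them the second FMR4siRNA array at 6 h (−0.17, adjusted p = 0.0505), and it was lost after quantile normalization (−0.14, adjusted p = 0.0619). The control transfections alone gave −0.15 (SE 0.08, adjusted p = 0.323) and the *FMR4* transfections alone −0.22 (SE 0.08, adjusted p = 0.112).

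*FXR1*, the other paralog, had its largest change in the control siRNA. With CTLsiRNA it read 10.82, 10.69 and 10.73 at 6 h and 11.08, 10.99 and 11.02 at 24 h, so that all 3 later arrays were higher. The rise of 0.28 was called (SE 0.06, 95% interval 0.15 to 0.41, 1.22-fold, adjusted p = 0.0032), the 1 call among 6 members in that transfection, where 18.6% of all genes were called. It was kept without each of the 6 arrays in turn (0.25 to 0.32). With FMR4siRNA *FXR1* read 10.88, 10.70 and 10.69 and then 10.94, 10.93 and 10.76, an overlapping difference of 0.12 (SE 0.06, adjusted p = 0.21) that was called without the first 6 h array (0.18, adjusted p = 0.0447). The changes were 0.07 with CTRLpcDNA and −0.01 with FMR4pcDNA (adjusted p = 0.596 and 0.944), with overlapping arrays in both. The mean rise over the 4 transfections was called with the control transfections alone (0.18, adjusted p = 0.00683) and not with the *FMR4* transfections alone (0.05, adjusted p = 0.474). The difference between arms was −0.17 (SE 0.06, adjusted p = 0.0734) and was called without the first FMR4siRNA array at 6 h (−0.20, adjusted p = 0.0197) or the third at 24 h (−0.20, adjusted p = 0.0306), and after median centring (−0.22, adjusted p = 0.0216).

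*CYFIP1*, which links FMRP to eIF4E and to the WAVE complex, had the largest called difference between arms among the 6. With the plasmids it started high and ended low. It read 9.44, 9.50 and 9.47 with CTRLpcDNA at 6 h and 9.34, 9.32 and 9.14 at 24 h, a difference of −0.20 (SE 0.07, adjusted p = 0.0799) with no overlap, which was called after quantile normalization (adjusted p = 0.0216). With FMR4pcDNA it read 9.53, 9.43 and 9.54 at 6 h and 9.23, 9.31 and 9.14 at 24 h, again with no overlap. This fall of 0.27 was called (SE 0.07, 1.21-fold, adjusted p = 0.0152). It was the 1 member called with FMR4pcDNA, where 6.33% of all genes were called. With CTRLpcDNA limma called 0 of 6 members and 5.76% of all genes. An unadjusted p under 0.05 was found for 2 members and for 3698 of all genes.

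With the siRNAs *CYFIP1* was level or higher at 24 h. It read 9.40, 9.41 and 9.28 with CTLsiRNA at 6 h and 9.42, 9.34 and 9.37 at 24 h, a difference of 0.01 (SE 0.07, adjusted p = 0.96). With FMR4siRNA it read 9.37, 9.14 and 9.29 at 6 h and 9.51, 9.53 and 9.44 at 24 h. All 3 later arrays were higher, and the rise of 0.22 was called (SE 0.07, 1.17-fold, adjusted p = 0.0251). Together with *FMR1* and *NUFIP2* it made 3 of 6 members called with FMR4siRNA, where 16.7% of all genes were called. In a fit to the 6 FMR4siRNA arrays alone, with the same log2 differences, 0 of the 3 calls remained (adjusted p = 0.254 for *CYFIP1*), and the calls over all genes went from 3067 to 44. The *CYFIP1* calls in single transfections each depended on single arrays, while the signs did not. The FMR4siRNA call was lost without the first 24 h array (0.22, adjusted p = 0.066), the second (0.20, adjusted p = 0.0974) or the second 6 h array (0.16, adjusted p = 0.14). The FMR4pcDNA call was lost without the third 24 h array (−0.23, adjusted p = 0.112), the first 6 h array (−0.26, adjusted p = 0.0647) or the third (−0.25, adjusted p = 0.0721).

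Between arms the difference of the changes of *CYFIP1*, plasmid minus siRNA, was −0.35 (SE 0.07, 95% interval −0.49 to −0.21, 1.28-fold, adjusted p = 0.00286). It was called without each of the 24 arrays in turn, at −0.38 to −0.32. The control transfections alone gave −0.21 (SE 0.09, adjusted p = 0.274) and the *FMR4* transfections alone −0.50 (SE 0.09, adjusted p = 0.00817).

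*CYFIP2*, the paralog of *CYFIP1* in the WAVE complex, was called in 0 of the 16 comparisons, and 0 of them had an unadjusted p under 0.05 in limma. Its 24 arrays lay between 10.67 and 10.92, with the lowest and the highest array both in FMR4siRNA at 6 h. The changes from 6 to 24 h were −0.05 with CTLsiRNA, 0.06 with FMR4siRNA, 0.04 with CTRLpcDNA and 0.00 with FMR4pcDNA, and the arrays overlapped in all 4. The difference between arms was 0.02 (95% interval −0.11 to 0.15, adjusted p = 0.874), an interval that does not reach the −0.35 of *CYFIP1*. The difference between the 2 genes was not itself tested.

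*NUFIP2*, the RNA granule partner, was highest early in the siRNA arm. With CTLsiRNA it read 11.24, 11.29 and 11.47 at 6 h and 11.04, 10.98 and 11.04 at 24 h, a difference of −0.31 with no overlap (SE 0.12, adjusted p = 0.0812) that was called in a fit to these 6 arrays (adjusted p = 0.0119). With FMR4siRNA it read 10.83, 11.12 and 11.66 at 6 h and 10.73, 10.86 and 10.69 at 24 h. The 6 h arrays spread by 0.42 (SD, n = 3), the widest of any member and condition, and the lowest of them lay within the 24 h range. The fall of 0.44 was called (SE 0.12, 1.36-fold, adjusted p = 0.0152). Without the third 6 h array it was −0.21 and was not (adjusted p = 0.0829). The fall averaged over the 4 transfections was called without each of the 24 arrays in turn, at −0.24 to −0.13, and not in the control transfections alone (−0.14, adjusted p = 0.292) or the *FMR4* transfections alone (−0.25, adjusted p = 0.0517).

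With the plasmids *NUFIP2* stayed between 10.90 and 11.06 on all 12 arrays. Its changes were 0.03 with CTRLpcDNA and −0.05 with FMR4pcDNA (adjusted p = 0.913 and 0.871). The difference between arms was 0.37 (SE 0.12, 95% interval 0.12 to 0.62, adjusted p = 0.053). It was called after quantile normalization (0.40, adjusted p = 0.0336) and without the first or the third FMR4siRNA array at 6 h (0.46, adjusted p = 0.00245, and 0.25, adjusted p = 0.029).

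**Figure D3:**
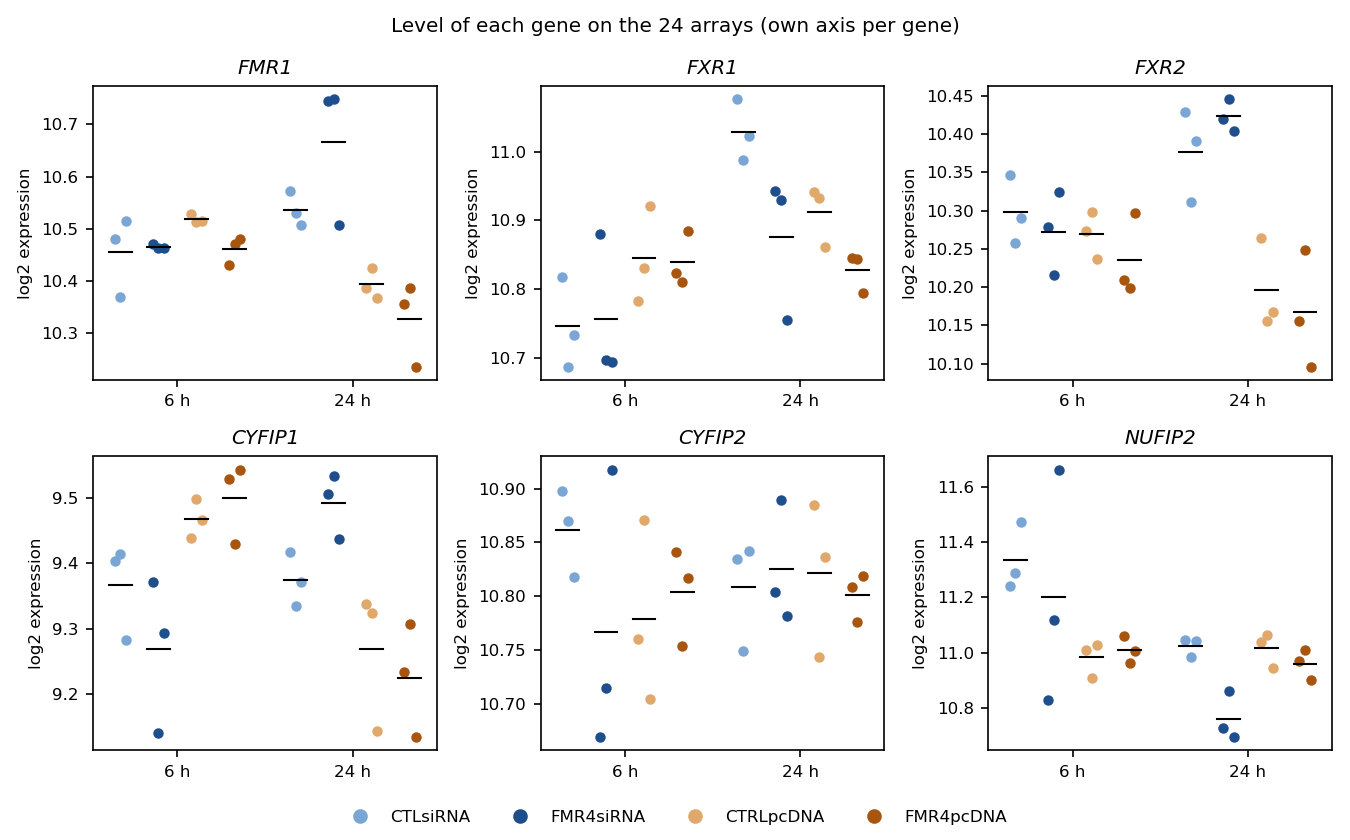
Log2 expression (y axis, scaled for each gene) of the 6 genes on the 24 arrays at 6 and 24 h, 1 point per array and a bar at the mean of each condition (n = 3). At 24 h the siRNA points (blue) of *FMR1* and *FXR2* all lie above the plasmid points (orange), and those of *NUFIP2* at 6 h spread from 10.83 to 11.66.

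Where the arms stood at each time was compared over both transfections of an arm, a comparison added after the values were seen. At 6 h 2 of 6 members were called, where 19.2% of all genes were. *CYFIP1* ranged from 9.14 to 9.41 on the 6 siRNA arrays (median 9.33) and from 9.43 to 9.54 on the 6 plasmid arrays (median 9.48), without overlap, and was higher with plasmid by 0.17 (SE 0.05, 1.12-fold, adjusted p = 0.0189). The call was lost without the third CTLsiRNA array (0.14, adjusted p = 0.0615) and in a fit to these 12 arrays (adjusted p = 0.0591). *NUFIP2* ranged from 10.83 to 11.66 with siRNA (median 11.26) and from 10.91 to 11.06 with plasmid (median 11.01), with a difference of −0.27 (SE 0.09, 1.21-fold, adjusted p = 0.0306). The *NUFIP2* ranges overlapped, and its call was lost without any 1 of 5 of the 12 arrays, with −0.16 (adjusted p = 0.0545) without the third FMR4siRNA array. Neither gene was called in the *FMR4* transfections alone, where *CYFIP1* had 0.23 (adjusted p = 0.081) and *NUFIP2* −0.19 (adjusted p = 0.382). Over all genes the calls went from 3534 to 97 in the *FMR4* transfections alone. *FMR1* and *FXR2* differed by 0.03 and −0.03 at 6 h and were not called (adjusted p = 0.661 and 0.569). *FXR1* differed by 0.09 (adjusted p = 0.151) and was called without the first FMR4siRNA array (0.12, adjusted p = 0.0405).

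At 24 h 3 of 6 were called, where 12.3% of all genes were, and all 3 were lower with plasmid. *FMR1* ranged from 10.51 to 10.75 with siRNA (median 10.55) and from 10.24 to 10.42 with plasmid (median 10.38), a difference of −0.24 without overlap (SE 0.04, 1.18-fold, adjusted p = 0.000565). *FXR2* ranged from 10.31 to 10.45 with siRNA (median 10.41) and from 10.10 to 10.26 with plasmid (median 10.16), a difference of −0.22 without overlap (SE 0.04, 1.16-fold, adjusted p = 0.00052). *CYFIP1* was now lower with plasmid (−0.19, SE 0.05, 1.14-fold, adjusted p = 0.0106), with the lowest siRNA array at 9.335 just under the highest plasmid array at 9.338. All 3 calls were kept without each of the 12 arrays in turn. In the *FMR4* transfections alone the differences were −0.34 for *FMR1* (adjusted p = 0.001), −0.26 for *FXR2* (adjusted p = 0.00402) and −0.27 for *CYFIP1* (adjusted p = 0.0136), all called. Over all 18395 genes the calls were 1544 in the *FMR4* transfections alone and 2260 with both pairs. *FXR1*, *CYFIP2* and *NUFIP2* were not called at 24 h, at −0.08, −0.01 and 0.10.

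The 3 genes were not called between the control transfections. Between these, CTRLpcDNA and CTLsiRNA, limma called 0 of 6 members at 6 h, where 3.31% of all genes were called. There, 1 member, *NUFIP2*, had an unadjusted p under 0.05 (−0.35, SE 0.12, adjusted p = 0.0969), as did 4258 of all genes. The *NUFIP2* groups did not overlap. Limma called this difference when the other conditions were left out of the model (adjusted p = 0.023). It was called with array weights as well (−0.32, adjusted p = 0.00421). Over all genes the calls rose from 608 to 1383 and 3262 in these settings. The share called also rests on single arrays. The 608 genes called became 9 without the third CTRLpcDNA array, 10 without the third CTLsiRNA array and 22 without the first CTRLpcDNA array. At 24 h limma called 0 of 6, where 4.49% of all genes were called. An unadjusted p under 0.05 was found for 3075 of all genes and for 2 members. These were *FXR2* at −0.18 (SE 0.05, adjusted p = 0.0585), whose groups did not overlap, and *FMR1* at −0.14 (SE 0.06, adjusted p = 0.221), whose groups did not overlap either. *CYFIP1* had −0.11 (SE 0.07, adjusted p = 0.471). The *FXR2* difference passed the threshold after quantile normalization (−0.20, adjusted p = 0.0126) and with dim probe sets left out (adjusted p = 0.0448).

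Ranked over the 8 conditions, *FMR1* was highest with FMR4siRNA at 24 h (mean 10.67 ± 0.14, SD, n = 3), followed by CTLsiRNA at 24 h (10.54 ± 0.03), and lowest with FMR4pcDNA at 24 h (10.33 ± 0.08) after CTRLpcDNA at 24 h (10.39 ± 0.03). The 4 conditions at 6 h lay between, from 10.45 to 10.52. The span was 0.34, or 1.27-fold, and 2 of the 7 gaps between neighbours exceeded the pooled SD of 0.07, those below the highest and above the lowest condition. The ranges overlapped at both gaps, neither difference was called, and a gap above the pooled SD is not a test. *FXR2* had the same highest and lowest conditions over a span of 0.26, with 1 gap above its pooled SD of 0.05, the one below CTLsiRNA at 24 h. There the ranges overlapped as well. *FXR1* ran from CTLsiRNA at 24 h (11.03 ± 0.04) to CTLsiRNA at 6 h (10.75 ± 0.07), a span of 0.28, and 2 gaps exceeded its pooled SD.

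*CYFIP1* ran from FMR4pcDNA at 6 h (9.50 ± 0.06) to the same transfection at 24 h (9.23 ± 0.09), with 2 gaps above its pooled SD of 0.08. *NUFIP2* had the widest span of the 6, at 0.57 or 1.49-fold, from CTLsiRNA at 6 h (11.33 ± 0.12) to FMR4siRNA at 24 h (10.76 ± 0.09), and its pooled SD of 0.16 was exceeded by 2 of 7 gaps. *CYFIP2* had the narrowest, at 0.09 or 1.07-fold, and 0 of its gaps exceeded the pooled SD of 0.07, so its 8 conditions cannot be put in order.

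The pathway around the 6 genes was followed through 5 gene lists, described by counts and medians. Over the mean change from 6 to 24 h, in which the median of all genes was 0.01 and 30.7% of them were called, the list of the WAVE complex and Rac had 5 of 10 measured genes called (2 higher, 3 lower, median −0.01). *WASF2*, a WAVE subunit that activates the Arp2/3 complex, rose by 0.14 (SE 0.03, adjusted p = 0.0014) and the GTPase gene *RAC3* by 0.13 (SE 0.03, adjusted p = 0.00239). The small WAVE subunit *BRK1* fell by 0.08 (SE 0.02, adjusted p = 0.0175) and *WASF3* by 0.08 (SE 0.03, adjusted p = 0.0237). The fifth call, named after its values were seen, was *RAC1*, which fell by 0.07 (adjusted p = 0.0323). The called genes of this complex thus ran both ways.

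Of 14 measured genes of cap-binding translation initiation, the step FMRP and CYFIP1 act on, 3 were called (1 higher, 2 lower, median −0.01). *EIF4B*, a helper of the helicase eIF4A, rose by 0.13 (SE 0.03, adjusted p = 0.00201). *EIF4H*, another such helper, fell by 0.19 (SE 0.03, adjusted p = 0.000171) and the poly(A)-binding protein gene *PABPC4* by 0.13 (SE 0.03, adjusted p = 0.00141).

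Of 21 genes for RNA granule and FMRP-binding proteins, 9 were called (5 higher, 4 lower, median 0.01). The RNA helicase gene *MOV10* rose by 0.26 (SE 0.03, adjusted p = 4.28e-06) and the granule gene *CAPRIN1* by 0.12 (SE 0.03, adjusted p = 0.000714). *G3BP1*, a core stress granule protein, fell by 0.18 (SE 0.03, adjusted p = 0.000107) and nucleolin, *NCL*, by 0.12 (SE 0.03, adjusted p = 0.00149). *NUFIP2*, itself a granule protein, fell in the same comparison.

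Of 19 known FMRP target messages 4 were called (2 higher, 2 lower, median −0.05). *MAP1B*, a microtubule-binding protein gene and a classic FMRP target, rose by 0.12 (SE 0.04, adjusted p = 0.023) and the superoxide dismutase gene *SOD1* by 0.10 (SE 0.04, adjusted p = 0.0421). The diacylglycerol kinase gene *DGKK* fell by 0.21 (SE 0.05, adjusted p = 0.00383) and the synaptic scaffold gene *SHANK3* by 0.09 (SE 0.03, adjusted p = 0.0364). *DGKK* had means of 6.21 at 6 h and 6.00 at 24 h, close to the upper quartile of the mostly silent genes.

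Of 8 measured neighbours of *FMR1* on the X chromosome 4 were called, all lower (median −0.11). The lysosomal enzyme gene *IDS* fell by 0.57 (SE 0.08, 1.48-fold, adjusted p = 1.63e-05) and the phosphatase gene *MTM1* by 0.23 (SE 0.04, adjusted p = 0.000259). The remaining calls, named after their values were seen, were *MAMLD1*, which fell by 0.81 (SE 0.16, adjusted p = 0.000424), and *TMEM185A*, which fell by 0.16 (SE 0.04, adjusted p = 0.00307). *FMR1* had a mean change of 0.01 and was not called. In *IDS* the change was more positive with plasmid than with siRNA (0.66, SE 0.16, adjusted p = 0.0146), as it was in *MAMLD1* (1.33, SE 0.32, adjusted p = 0.0121), the sign opposite to that of *FMR1*.

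**Figure D4:**
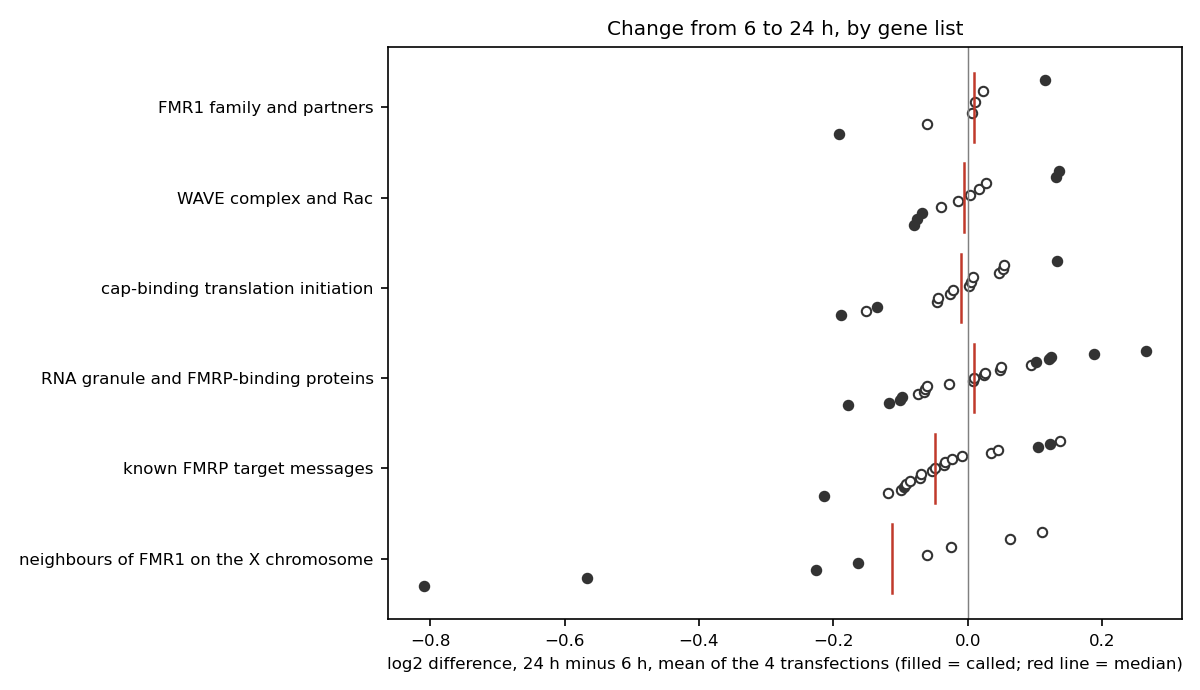
Mean log2 difference between 24 and 6 h over the 4 transfections (x axis) for each measured gene of the 6 named genes and the 5 lists, 1 point per gene, filled where called by limma, with a red line at the median of each list. In every list except the X chromosome neighbours, whose 4 called genes are all lower, called genes lie on both sides of 0.

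With FMR4siRNA against CTLsiRNA at 24 h, where 5.89% of all genes and 0 of the 6 members were called, 7 genes of the lists were called. The cap-binding list had 3 of 14. *EIF4E3*, a cap-binding relative of eIF4E, was higher by 0.48 (SE 0.09, 1.40-fold, adjusted p = 0.0011) and *EIF4H* lower (−0.46, SE 0.07, 1.37-fold, adjusted p = 9.81e-05). The third, named after its values were seen, was *MKNK1*, which encodes a kinase of eIF4E (−0.23, adjusted p = 0.0474). Of the WAVE genes 1 of 10 was called, *WASF3* (−0.35, SE 0.05, adjusted p = 0.000123). Of the granule genes 2 of 21 were called, *G3BP2* higher by 0.34 (SE 0.05, adjusted p = 0.000199) and *TIA1* lower (−0.27, SE 0.06, adjusted p = 0.00571). Of the FMRP targets 1 of 19 was called, the receptor gene *BMPR2* (−0.43, SE 0.08, 1.35-fold, adjusted p = 0.000749). Limma called 0 of the 8 neighbours of *FMR1*, and 1 had an unadjusted p under 0.05, as did 3017 of all genes. In all 7 called genes the arrays of the 2 groups did not overlap, but they were picked by that same difference, so this is no further evidence.

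In the difference between arms over time, called for 11% of all genes, 3 of 10 WAVE genes (1 higher with plasmid, 2 lower), 2 of 14 cap-binding genes (1 higher, 1 lower), 3 of 19 targets (2 higher, 1 lower) and 2 of 8 neighbours (both higher) were called. Of the granule genes 0 of 21 were called by limma, and 2 had an unadjusted p under 0.05, as did 5374 of all genes. The cap-binding genes, named after their values were seen, were *EIF4E*, which encodes the cap-binding factor that CYFIP1 binds, at −0.26 (SE 0.07, adjusted p = 0.0204), and its relative *EIF4E3* at 0.28 (SE 0.09, adjusted p = 0.0445). The WAVE genes, named in the same way, were *WASF2* at −0.26 (SE 0.06, adjusted p = 0.0116), *WASF3* at −0.19 (SE 0.05, adjusted p = 0.0222) and *ABI3* at 0.26 (SE 0.07, adjusted p = 0.0217). They lay on both sides of 0, as the cap-binding genes did. *EIF4E* and *ABI3* had low means, 7.03 and 6.85, levels that genes chosen as markers of other tissues also reached, such as *GFAP* (7.33). Leaving out each FMR4siRNA array at 6 h in turn kept 24 of the 25 list calls in the mean change and 9 of the 10 in the difference between arms, with no change of sign. The exceptions were *SHANK3* without replicate 3 (adjusted p = 0.063) and *EIF4E3* without replicate 3 (adjusted p = 0.0627).

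The genes whose levels were most like those of a member over the 24 arrays were ranked by Pearson's r among 15122 genes, as a description in which all points share the same arrays and 8 conditions. For *FMR1* these were *RAB8B* (0.88), *SGPL1* (0.88) and *C2orf69* (0.88), and for *FXR2* they were *C2orf69* (0.93), *GEM* (0.92) and *VAMP3* (0.91), so that 1 gene stood in both. *CYFIP1* was most like *WDR46* (0.90), *TADA1* (0.89) and *SLC25A17* (0.89), and *FXR1* most like *VPS41* (0.88), *RBBP9* (0.87) and *DIS3L* (0.87). *NUFIP2* had the closest of all, *DHRS7* (0.95), *LINC01963* (0.95) and *TGOLN2* (0.94), and *CYFIP2* the least close, *PHF12* (0.76), *TRPC1* (0.75) and *EXT2* (0.73). Among the members themselves, *FMR1* and *FXR2* were the most alike pair (r = 0.81), then *FMR1* and *CYFIP1* (0.62) and *FXR2* and *CYFIP1* (0.57). With the mean of each condition removed, these became 0.41, 0.30 and 0.63, and that of *FMR1* and *FXR1*, at 0.36 before, became 0.62. Without the 3 FMR4siRNA arrays at 6 h the 3 pairs had 0.82, 0.67 and 0.59 over 21 arrays, and the values with the genes most alike were 0.83 to 0.94, apart from those of *CYFIP2*, at 0.62 to 0.73.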

How the data were processed

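Total RNA of HEK293T cells was hybridized to Affymetrix Human Gene ST arrays (version 1.0 per the labels, 2.0 per the study's methods). The deposited log2 expression values were made by the authors by background subtraction and GC-RMA normalization (GCRMA in the submitters' processing notes, version not given in the sources used here) and were used unchanged. Of 33297 probe sets, 21214 have a gene in the array annotation and 19460 a single symbol, of which 27 were updated through RefSeq tables. Array depth has no equivalent of read counts, and the number of arrays limits the precision. All 24 arrays were fitted with 1 mean per condition in limma 3.58.1 (R 4.3.3, no trend, not robust), with 16 residual degrees of freedom, two-sided tests, Benjamini-Hochberg adjustment within a comparison over the 21214 probe sets and a threshold of 0.05. "Called" means past that threshold. Folds and intervals come from the same fit. The test was run on simulated data with independent noise of equal spread on all arrays. That run does not cover the unequal spread of the real arrays (array weights from 0.15 to 2.28).

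The members, gene lists and comparisons were chosen with earlier results of these data known. The text names the 6 members and, from each list, up to 2 genes per direction of lowest adjusted p among those called over time and up to 2 called in the siRNA comparison at 24 h, plus the 3 genes most like each member, ranked among genes with a mean above the mostly silent ones. Comparisons share arrays with one another. Replicate numbers were not used as pairs, because in no comparison did all 3 same-number pairs of arrays deviate together with a correlation over 0.1 (range −0.38 to 0.47). Some pairs did deviate together, as replicate 3 of the 2 siRNAs at 6 h (0.47). For the 2 plasmids at 6 h all 3 correlations were positive (0.08 to 0.15). Alternatives were fits to the arrays compared, trend and robust moderation, array weights, dim probe sets left out, quantile normalization, median centring, averaging the probe sets of each gene, a replicate block, thresholds of 0.01 and 0.1, and each array left out. The arm comparisons at a single time and the splits into control and *FMR4* transfections were added after the values were seen, as were the list genes and correlations without FMR4siRNA arrays at 6 h. Figures used matplotlib 3.10.9 in Python 3.11.15.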

Additional observations from a re-analysis of the deposited data

Results flagged for a closer look

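The change from 6 to 24 h differed between the plasmid and the siRNA arm, by a limma interaction test over all 24 arrays, in *FMR1* (−0.27, SE 0.06, adjusted p = 0.00809), *FXR2* (−0.19, SE 0.05, adjusted p = 0.0323) and *CYFIP1* (−0.35, SE 0.07, adjusted p = 0.00286). The 3 differences have the same sign. The *FXR2* call was kept without 13 of the 24 arrays in turn, and those of *FMR1* and *CYFIP1* without each of them. In the control transfections alone 0 of the 3 were called by limma (−0.21, −0.15 and −0.21), each with the same sign, and in the *FMR4* transfections alone *FMR1* and *CYFIP1* were. Of all 18395 genes, 2031 were called with both pairs, 206 with the controls alone and 559 with the *FMR4* transfections alone. Arm, nucleic acid and transfection reagent cannot be told apart in this design.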

How the results depend on the processing

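Of 375 alternative values of members called in the main setting, 318 stayed called with the same sign, 57 lost the call and 0 turned their sign. Of 1581 alternative values of uncalled members, 37 became called and 81 differed in sign. Part of these counts was fixed in advance. The thresholds of 0.01 and 0.1 reuse the main fit, so no sign could change there. No call could be lost at 0.1 or gained at 0.01. Fits with 1 array left out share all the other arrays with the main fit. Counts of members called that moved by over 1.5 times, or to or from 0, were as follows, and other counts moved by 1 at most. The totals over all genes moved as well, and whether the members moved more than all genes was not tested. In fits to the arrays compared, the count was 2 for CTLsiRNA over time, 0 for FMR4siRNA over time, 1 for the 2 controls at 6 h and 0 for both arms at 6 h. Over all genes these went from 3413 to 3587, from 3067 to 44, from 608 to 1383 and from 3534 to 1121. With array weights, which raised the calls over all genes in the difference between arms from 2031 to 4815 and in FMR4siRNA over time from 3067 to 4164, the count of members was 1 for the knockdown at 24 h, 2, 5 and 1 over time with CTLsiRNA, FMR4siRNA and CTRLpcDNA, 5 for the difference between arms over time, and 1 for the controls at 6 h and 1 at 24 h. The weights also raised the calls over all genes to 1655 for the knockdown at 24 h and to 5129 and 2921 over time with CTLsiRNA and CTRLpcDNA. For the controls they rose to 3262 at 6 h and 1894 at 24 h. Leaving out dim probe sets gave 1 for the controls at 24 h, as did quantile normalization and median centring, which also gave 1 for CTRLpcDNA over time. Over all genes the controls at 24 h had 934, 992 and 950 calls in these settings, and CTRLpcDNA over time 1223 and 1146 in the last 2. At a threshold of 0.01 the count was 0 for FMR4siRNA and 0 for FMR4pcDNA over time, 1 for the mean over time and 0 for the arms at 6 h. Over all genes the calls were then 1541, 454, 3991 and 1215 in the same order. At 0.1 the count of members was 2 for CTLsiRNA, 1 for CTRLpcDNA and 5 for the difference between arms over time, and 1 for the controls at each time. Over all genes the calls were then 4477, 1846 and 3528, and 1684 and 1290 for the controls at 6 and 24 h. The control transfections alone gave 1 for the mean over time, 0 for the difference between arms over time, and 0 for the arms at 6 h and 0 at 24 h, and the *FMR4* transfections alone gave 0 for the mean over time and 0 for the arms at 6 h. Over all genes the calls were 3728, 206, 608 and 826 with the controls alone. With the *FMR4* transfections alone they were 3192 and 97. Leaving out 1 array gave 0 to 1 for FMR4siRNA against its control at either time and for the 2 controls at 24 h, 1 to 4 for FMR4siRNA and 0 to 1 for FMR4pcDNA over time, 2 to 5 for the difference between arms over time and 0 to 3 for the arms at 6 h. Over all genes, leaving out 1 array moved the calls by over 1.5 times in further comparisons. They went from 3413 to as few as 1850 for CTLsiRNA over time (without replicate 3 at 6 h), from 1060 to 390 for CTRLpcDNA (without replicate 1 at 6 h), from 1165 to 446 for FMR4pcDNA (without replicate 3 at 24 h), from 1083 to 653 for the knockdown at 24 h (without CTLsiRNA replicate 2) and from 826 to 367 for the controls at 24 h (without CTRLpcDNA replicate 2). They ranged from 1841 to 4493 for FMR4siRNA over time, from 2025 to 5055 for the arms at 6 h and from 1238 to 3563 for the difference between arms over time, the highest each time without FMR4siRNA replicate 1 at 6 h. With a replicate block, the 4 knockdown and overexpression comparisons still had 0 members called and no call of a member changed, and the paired *FMR1* difference at 24 h was 0.13. Where no cause is given by fewer samples or a stricter threshold, the cause was not tested. With 3 arrays a condition, a difference smaller than the margin of its interval could not be called here. A larger one could also go uncalled, because calls use adjusted p and the intervals are not adjusted. All 6 members lay well above the level of the mostly silent genes.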
